A study of Mus musculus with 33 samples.

Results

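The set holds 10 named genes of insulin signalling and of the IGF binding proteins, followed here in mouse liver: the insulin receptor Insr, its adaptors Irs1 and Irs2, the kinases Akt1 and Akt2, the transcription factors Foxo1 and Foxo3, and the binding proteins Igfbp1, Igfbp2 and Igfbp4. Their probe sets were taken by gene symbol from the platform annotation. Of 45037 probe sets, 28 named 1 of these 10 genes, and 19 of the 28 passed the filter on low values (log2 of at least 4 in at least 10 of 33 arrays). The 19 measured 9 of the 10 genes, among 9005 genes tested, and Irs2 was the gene left without a measurement above the filter.

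The study fed male C57BL/6J mice 1 of 3 diets for 2 weeks and measured liver RNA on Affymetrix mouse genome arrays, 1 array for each of 33 mice. The mice were 17 weeks old at the end, lived 2 per cage, and had no food from 7:00 to 13:00 before they were killed. All 3 groups ate the same research diet with an added oil that supplied 7% of the energy. The 10 control mice received sunflower oil with 81.3% oleic acid. The 12 fenofibrate mice received that sunflower oil with fenofibrate, an agonist of the nuclear receptor PPARα, at 0.03% by weight. The 11 fish oil mice received fish oil with 23.1% EPA and 21.1% DHA in place of the sunflower oil.

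Insulin binds its receptor on hepatocytes, the receptor phosphorylates the IRS adaptors, and these recruit phosphatidylinositol 3-kinase, which leads to activation of AKT. AKT phosphorylates the FOXO factors and keeps them out of the nucleus, so genes that FOXO factors drive, Igfbp1 and Irs2 among them, are high in fasting and low after a meal. Hepatocytes also make circulating IGF1, and the IGF binding proteins carry it and set how much reaches its receptor. The arrays measured RNA, and phosphorylation and protein were not measured.

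Fenofibrate raised Igfbp2 and lowered Igfbp4. No other gene of the set passed the test in that comparison. No measured gene of the set passed the test under fish oil against control. With limma across all 9005 genes, 1 of the 9 measured genes was higher and 1 lower under fenofibrate than in controls at an adjusted p under 0.05. Over all genes tested, 22% were higher and 18.9% lower in that comparison, so the members' shares were not above the background. In fish oil against control, 0 of the 9 genes passed at the adjusted p and 0 passed at an unadjusted p under 0.05, while 7.53% of all genes were higher and 7% lower. In fenofibrate against fish oil, 1 gene was higher and 1 lower, against 19.8% and 19.1% of all genes. The median log2 difference of the 9 genes was -0.11 with fenofibrate and -0.03 with fish oil, each against control, and -0.05 between the treatments, beside medians of -0.00, 0.01 and -0.01 over all genes. Each diet was compared with the same 10 control arrays, so the first and second comparisons share their controls.

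Array medians over all probe sets lay between 2.90 and 2.97, and arrays of 1 diet correlated at 0.968 to 0.995 over the 9005 genes. Control replicates 1, 2 and 9 stood apart: their median correlation with the other controls over the 9005 genes was 0.972, 0.976 and 0.981, and that of the other 7 controls lay between 0.989 and 0.993. They held the lowest or highest control value for 7 of the 9 members. The same count was not made over all genes, so nothing particular to the members can be read from it. For some results the values without these controls are given as well. Leaving these controls out together was chosen after seeing the data. The hepatocyte marker Alb and 6 other hepatocyte markers were measured above the filter. The mean log2 level of those 7 markers ran from 13.92 to 14.04 in controls, 13.65 to 13.87 under fenofibrate and 13.76 to 14.003 under fish oil. Under fenofibrate, 5 of the 7 were lower than in controls, as were 2 of 7 Kupffer cell markers, 3 of 7 sinusoidal endothelial markers and 3 of 6 measured stellate cell markers, and 1 marker in each of the last 2 lists was higher. Under fish oil, 3 of 7 hepatocyte and 3 of 7 sinusoidal endothelial markers were lower than in controls, and 0 of the Kupffer and stellate cell markers were called. Of all genes, 18.9% were lower and 22% higher under fenofibrate, and 7% lower and 7.53% higher under fish oil, each against control. The mean of the endothelial markers ran from 7.83 to 8.14 under fish oil, 8.02 to 8.41 under fenofibrate and 8.13 to 8.44 in controls. Of the cholangiocyte, lymphocyte, blood cell and pancreatic lists 1 marker each was measured above the filter, and of the adipocyte list 0. The lymphocyte marker Ighm was higher by 0.67 under fenofibrate than in controls, the blood cell marker Alas2 differed by -1.04 and the pancreatic marker Cela1 by -1.13. These 3 were called in the same direction against fish oil, and none of the 4 was called in fish oil against control. The part of these marker shifts in the results below was not tested. In whole liver, fewer cells of a type and less RNA per cell cannot be told apart.

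**Figure D1:**
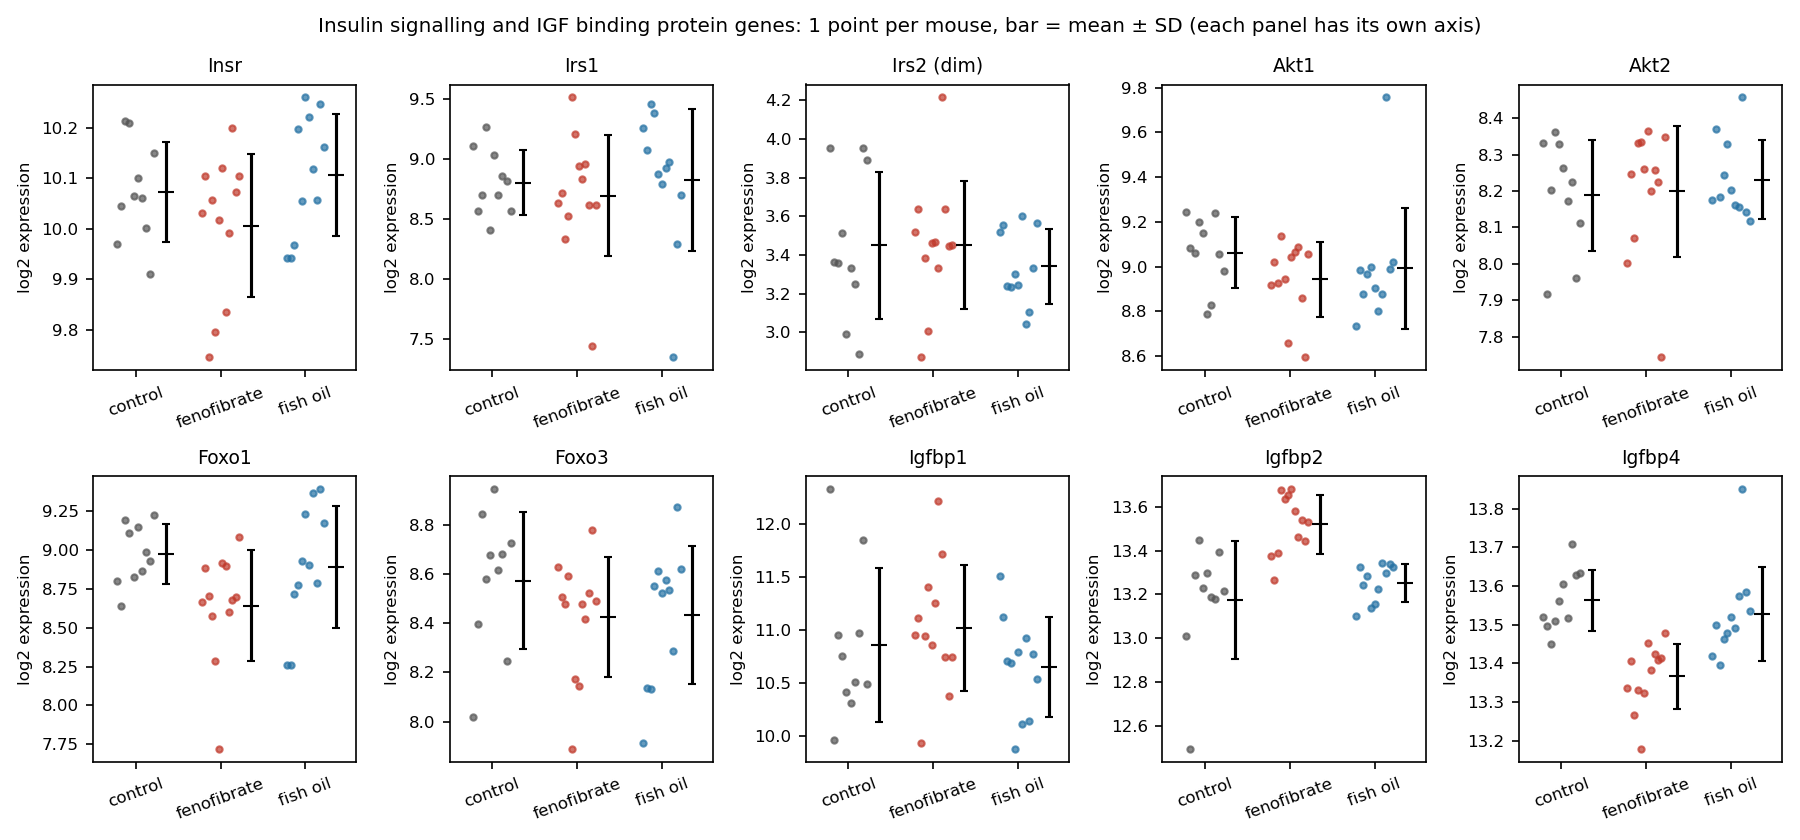
Level (log2, vertical axis, a separate axis in each panel) of the 10 genes in each mouse, by diet (10 control, 12 fenofibrate and 11 fish oil mice), with bars for mean and SD. The Irs2 panel, marked dim, shows a probe set that did not pass the filter. Igfbp2 sits higher and Igfbp4 lower under fenofibrate, with overlap at the ends of the ranges, and the groups overlap in the other panels too.

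The promoter windows show which members carry the short sequence through which FOXO factors are known to act on insulin-repressed genes. RefSeq windows of GRCm38.p6, each of 300 bases from 250 before to 50 after a transcription start, were available here for 9 of the 10 genes, in 14 windows. Insr had no window and was not searched. The core of the insulin response element was searched as CAAAACA on either strand, which reads TGTTTTG on the opposite strand, and it occurred in 6.28% of 32851 windows of the same length. Among the members it was found in the windows of Igfbp1, Irs1 and Irs2. Each match is printed 5′ to 3′ on the strand of its gene, with the matched bases in capitals.
Igfbp1, position -108: agctcacaagCAAAACAaacttatttt
Irs1, position -111: ctccgtcacgTGTTTTGctcctctgga
Irs1, position -32: agccgccgctTGTTTTGgttggggctc
Irs2, position -37: agtcacgtgtTGTTTTGctcttagttc
These stretches lie at chr11:7197669-7197695 (plus strand), chr1:82291534-82291560, chr1:82291455-82291481 and chr8:11008950-11008976 (the last 3 on the minus strand), and positions give the first matched base before the transcription start. In the Igfbp1 window the matched strand was that of the gene, and in Irs1 and Irs2 it was the opposite strand. A related forkhead core, TGTTTAC or GTAAACA, occurred in 3.65% of all windows and, among the members, in Akt1 at position -161.

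The Igfbp1 promoter is shown in full over its 250 bases before the start (chr11:7197537-7197786, plus strand), because Igfbp1 is the classical liver gene for this element.
Igfbp1 promoter: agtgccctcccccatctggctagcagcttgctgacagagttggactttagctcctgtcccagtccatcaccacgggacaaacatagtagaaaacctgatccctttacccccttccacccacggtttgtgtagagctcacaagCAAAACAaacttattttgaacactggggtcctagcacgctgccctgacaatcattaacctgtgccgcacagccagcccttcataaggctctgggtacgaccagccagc
The capitals mark the insulin response element core. The full site to which PPARα binds is a pair of AGGTCA half-sites with 1 base between them. Searched as AGGTCANAGGTCA, where N is any base, on either strand, it occurred in 0.0396% of windows and in 0 of the 14 member windows. A single AGGTCA half-site occurred in 16.3% of all windows and, among the members, in Akt1 at position -238. The windows of Igfbp2 and Igfbp4, whose RNA differed between diets, held 0 matches to any of these motifs. A match or its absence describes these letters in these windows and says nothing of binding.

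The receptor Insr did not pass the test in any comparison. Its probe set 1434446_at read 9.91, 10.06 and 10.21 (lowest, median and highest log2 level) in controls, 9.75, 10.04 and 10.20 under fenofibrate, and 9.94, 10.12 and 10.26 under fish oil. The 3 groups overlapped over nearly their whole ranges. The log2 difference from control was -0.07 ± 0.05 (SE; 95% interval -0.18 to 0.05, limma adjusted p = 0.359) under fenofibrate and 0.03 ± 0.06 (-0.08 to 0.15, adjusted p = 0.751) under fish oil. It was -0.10 ± 0.05 (-0.21 to 0.01, adjusted p = 0.142) for fenofibrate against fish oil. A change in Insr RNA beyond 0.21 on the log2 scale lay outside all 3 intervals.

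Irs1 and Irs2 are the main docking proteins of the receptor in liver. Irs1, on 1423104_at, read 8.41, 8.76 and 9.27 in controls, 7.44, 8.68 and 9.51 under fenofibrate and 7.35, 8.93 and 9.46 under fish oil. The groups overlapped, and 2 single mice set the low ends: fenofibrate replicate 11 at 7.44 and fish oil replicate 9 at 7.35. The difference from control was -0.11 ± 0.20 (-0.51 to 0.30, adjusted p = 0.701) under fenofibrate and 0.02 ± 0.20 (-0.39 to 0.43, adjusted p = 0.961) under fish oil, and it was -0.13 ± 0.19 (-0.52 to 0.26, adjusted p = 0.627) between the treatments. Without those 2 mice the values were 0.01, 0.17 and -0.16, and none of the 3 passed the test. The wide intervals mean that a moderate change in Irs1 was not detectable with these arrays.

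Irs2 could not be followed with the same confidence, because its 1 probe set, 1443969_at, was dim. It reached a log2 level of 4 in 1 of 33 arrays, and read 2.89, 3.36 and 3.95 in controls, 2.87, 3.46 and 4.21 under fenofibrate and 3.04, 3.30 and 3.60 under fish oil. In a fit with no filter on low values the log2 difference from control was 0.00 ± 0.13 under fenofibrate (adjusted p = 0.994) and -0.11 ± 0.13 under fish oil (adjusted p = 0.761). At this signal the values say little about Irs2 RNA.

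The kinases Akt1 and Akt2 carry the signal from the adaptors to metabolism, Akt2 being the main form in insulin-driven metabolism. Akt1, on 1416657_at, read 8.79, 9.07 and 9.24 in controls, 8.60, 8.98 and 9.13 under fenofibrate and 8.73, 8.97 and 9.76 under fish oil. Fish oil replicate 9, the mouse with the lowest Irs1, had the highest Akt1. The Akt1 difference was -0.12 ± 0.09 (-0.29 to 0.06, adjusted p = 0.286) for fenofibrate and -0.07 ± 0.09 (-0.25 to 0.11, adjusted p = 0.660) for fish oil, each against control. Without fish oil replicate 9 the fish oil value was -0.15 (adjusted p = 0.127). A further probe set of Akt1 gave -0.17 ± 0.09 for fenofibrate against control (adjusted p = 0.118 over probe sets).

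Akt2, on 1424480_s_at, read 7.92, 8.21 and 8.36 in controls, 7.74, 8.25 and 8.37 under fenofibrate and 8.12, 8.18 and 8.46 under fish oil. The 3 groups overlapped. Its difference from control was 0.01 ± 0.07 (-0.12 to 0.14, adjusted p = 0.911) under fenofibrate and 0.04 ± 0.07 (-0.09 to 0.18, adjusted p = 0.733) under fish oil. Between the treatments, Akt1 differed by -0.05 ± 0.08 (adjusted p = 0.683) and Akt2 by -0.03 ± 0.06 (adjusted p = 0.722), neither of which passed the test.

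Foxo1, the factor that drives gluconeogenic and other fasting genes in hepatocytes, lay at the edge of the threshold under fenofibrate. On 1416981_at it read 8.64, 8.96 and 9.23 in controls, 7.72, 8.69 and 9.08 under fenofibrate and 8.26, 8.90 and 9.39 under fish oil. Of the 12 fenofibrate mice, 11 lay below the control median and 4 below the lowest control, with overlap in the rest. The difference from control was -0.33 ± 0.14 (-0.61 to -0.05, 1.26-fold, adjusted p = 0.051), which missed the threshold. It was -0.08 ± 0.14 (adjusted p = 0.760) for fish oil against control and -0.25 ± 0.13 (adjusted p = 0.141) for fenofibrate against fish oil.

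The Foxo1 call turned on the setting. It passed in 7 of 11 other settings and in 10 of 33 fits that each left out 1 mouse, with adjusted p-values from 0.0305 to 0.103 over the latter. The mice whose absence brought it past the threshold were control replicates 1 and 2, fenofibrate replicates 2, 7, 8 and 12 and fish oil replicates 1, 2, 8 and 10. Over those fits the difference ran from -0.37 to -0.25. It was smallest without fenofibrate replicate 6, the lowest mouse at 7.72, and the call was not made there. Without control replicates 1, 2 and 9 the difference was -0.41 (adjusted p = 0.0328). The other 2 Foxo1 probe sets above the filter gave -0.28 ± 0.14 (adjusted p = 0.107 over probe sets) and -0.22 ± 0.12 (adjusted p = 0.146).

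Foxo3, of the same family, read 8.02, 8.65 and 8.95 in controls, 7.89, 8.48 and 8.78 under fenofibrate and 7.91, 8.54 and 8.87 under fish oil on 1434831_a_at. The groups overlapped, though 11 of 12 fenofibrate mice and 10 of 11 fish oil mice lay below the control median. The difference was -0.15 ± 0.11 (-0.38 to 0.08, adjusted p = 0.301) for fenofibrate and -0.14 ± 0.11 (-0.37 to 0.09, adjusted p = 0.455) for fish oil, each against control. It was -0.01 ± 0.11 (adjusted p = 0.964) between the treatments. Without control replicates 1, 2 and 9, Foxo3 passed for fenofibrate against control at -0.30 (adjusted p = 0.0291), and for fish oil it stood at -0.29 (adjusted p = 0.0737). Those mice had the lowest Foxo3 values among the controls (8.02, 8.40 and 8.25), so leaving them out had to widen both falls. This exclusion was chosen after seeing the data, and no Foxo3 change is concluded from it.

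Igfbp1, which hepatocytes secrete in fasting and which insulin represses within hours, varied more between mice of 1 diet than between diets. On 1418918_at it read 9.96, 10.63 and 12.33 in controls, 9.93, 10.95 and 12.21 under fenofibrate and 9.88, 10.71 and 11.51 under fish oil. Its SD among controls, 0.72, stood at the 97.7th percentile of the SDs of all 9005 genes, and at the 98.6th and 95.6th under fenofibrate and fish oil. The 2 highest controls were replicates 1 and 9, and the lowest was replicate 2. The difference from control was 0.16 ± 0.25 (-0.34 to 0.67, adjusted p = 0.627) under fenofibrate and -0.20 ± 0.25 (-0.71 to 0.31, adjusted p = 0.662) under fish oil, and it was 0.37 ± 0.24 (-0.12 to 0.85, adjusted p = 0.238) between the treatments. Without control replicates 1, 2 and 9 the first 2 values were 0.39 (adjusted p = 0.166) and 0.02 (adjusted p = 0.962), neither past the threshold.

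Igfbp2, a binding protein made by hepatocytes that rises in fasting and when insulin is low, was higher under fenofibrate than under either other diet. On 1454159_a_at it read 12.50, 13.22 and 13.45 in controls, 13.26, 13.53 and 13.68 under fenofibrate and 13.10, 13.28 and 13.34 under fish oil. All 12 fenofibrate mice lay above the control median, 8 of 12 above the highest control and 11 of 12 above the highest fish oil mouse. The mean was 13.17 ± 0.27 (SD, n = 10) in controls, 13.52 ± 0.13 (n = 12) under fenofibrate and 13.25 ± 0.09 (n = 11) under fish oil.

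In limma's fit, Igfbp2 rose by 0.34 ± 0.07 (0.19 to 0.50, 1.27-fold, adjusted p = 0.000368) under fenofibrate against control. It was higher by 0.27 ± 0.07 (0.12 to 0.42, 1.2-fold, adjusted p = 0.00379) under fenofibrate than under fish oil. Fish oil against control gave 0.08 ± 0.08 (-0.08 to 0.23, adjusted p = 0.558). The low end of the controls was 1 mouse, replicate 2 at 12.50, and without it the rise under fenofibrate was 0.27 and the fish oil difference was 0.00 (adjusted p = 0.988). Without control replicates 1, 2 and 9 it was 0.26 (adjusted p = 0.000408).

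Igfbp4, a binding protein that the liver makes in quantity and that holds IGF1 away from its receptor, was lower under fenofibrate on every one of its 6 probe sets. The brightest, 1437405_a_at, read 13.45, 13.54 and 13.71 in controls, 13.18, 13.39 and 13.48 under fenofibrate and 13.40, 13.50 and 13.85 under fish oil. All 12 fenofibrate mice lay below the control median and 10 of 12 below the lowest control, and 6 of 12 lay below the lowest fish oil mouse. Its mean was 13.56 ± 0.08 (SD, n = 10) in controls, 13.37 ± 0.08 (n = 12) under fenofibrate and 13.53 ± 0.12 (n = 11) under fish oil.

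On that probe set Igfbp4 fell by 0.20 ± 0.05 on the log2 scale (1.15-fold, adjusted p = 0.000749) under fenofibrate against control. For fenofibrate against fish oil the difference was -0.16 ± 0.04 (1.12-fold, adjusted p = 0.00385), and fish oil against control gave -0.03 ± 0.05 (-0.13 to 0.06, adjusted p = 0.690). The size of the fall depended on the probe set. The dimmest, 1421991_a_at, with a mean of 10.67, gave -0.59 ± 0.12 (1.51-fold, adjusted p = 0.00015 over all 17162 probe sets) against control and -0.63 ± 0.11 (adjusted p = 5.1e-05) against fish oil. The 4 others lay between -0.24 and -0.47 against control. The mean of the 6 probe sets fell by 0.39 on the log2 scale, which is over 1.5 times the value of the brightest.

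For 3 of the 6 Igfbp4 probe sets, 1423756_s_at, 1421992_a_at and 1423757_x_at, the fenofibrate and control ranges did not overlap. Over all probe sets above the filter, 1.5% lay wholly below the controls under fenofibrate. Tested as separate probe sets, all 6 of Igfbp4 were called lower under fenofibrate against control, where 17% of all probe sets were, and against fish oil, where 17.1% were. For fish oil against control 0 of the 6 were called lower, beside 5.34% of all probe sets. The 6 read the same RNA from the same mice and are no replicates of each other.

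**Figure D2:**
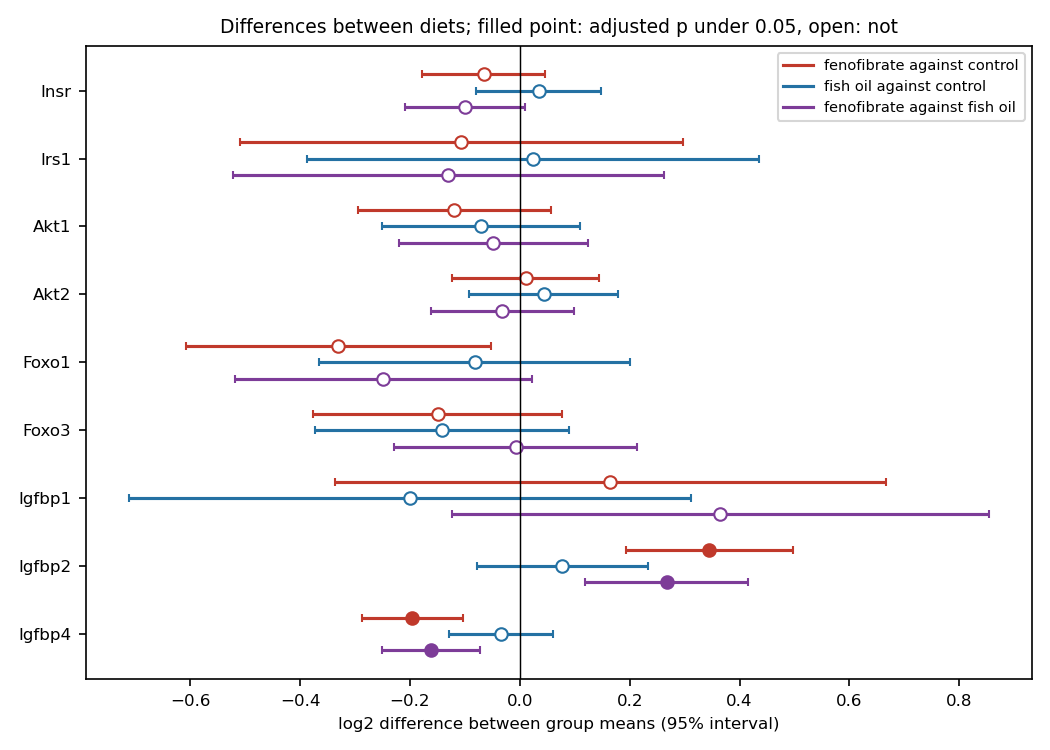
Log2 difference between group means with its 95% interval (horizontal axis) for each measured gene in the 3 comparisons, with filled points for an adjusted p under 0.05. The filled points are those of Igfbp2 and Igfbp4 against control and against fish oil under fenofibrate, and the Igfbp1 and Irs1 intervals are the widest.

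**Figure D3:**
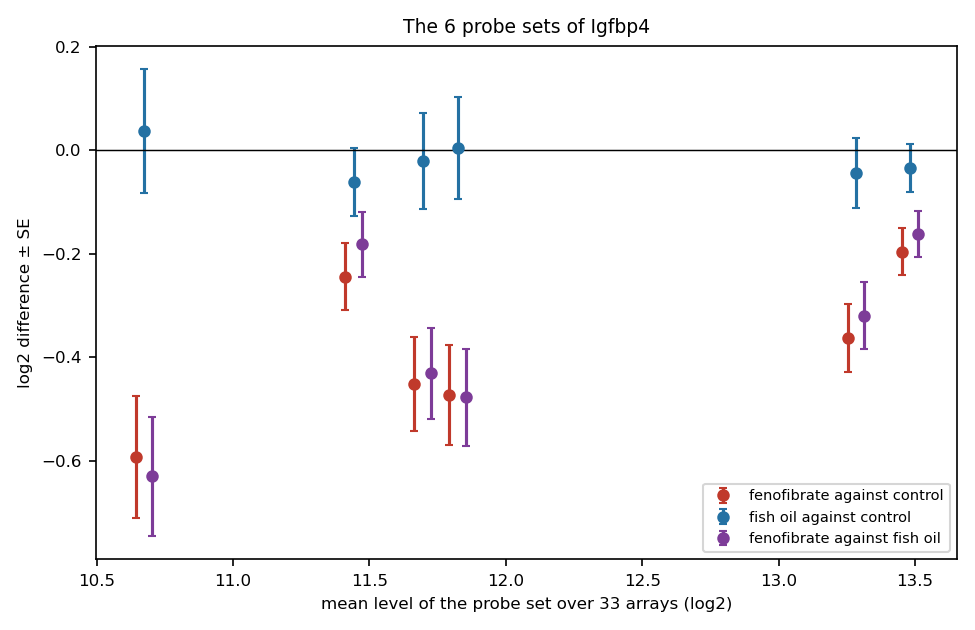
Log2 difference with SE (vertical axis) of the 6 Igfbp4 probe sets against their mean log2 level over 33 arrays (horizontal axis), with points of one probe set set slightly apart sideways. Both fenofibrate comparisons lie below 0 on all 6, from -0.20 to -0.59 against control, and fish oil against control lies near 0.

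The IGF system around these binding proteins was read from a list of 9 further genes, of which 5 were measured above the filter. Under fenofibrate against control, 3 of the 5 fell and 1 rose (median -0.19), beside the 18.9% and 22% of all genes. Igf1, the liver-made growth factor, read 12.61, 12.70 and 12.89 in controls, 11.72, 12.29 and 12.46 under fenofibrate and 12.50, 12.68 and 12.88 under fish oil. No fenofibrate mouse reached the lowest control or the lowest fish oil mouse. Wholly lower ranges were found for 1.83% of all genes against control and 2.25% against fish oil. Igf1 fell by 0.49 ± 0.07 (1.41-fold, adjusted p = 2.51e-07) against control and differed by -0.43 ± 0.06 (adjusted p = 1.81e-06) from fish oil.

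Igfals, the acid-labile subunit that joins IGF1 and its main carrier into a long-lived complex in blood, also fell under fenofibrate. It read 8.89, 9.35 and 9.62 in controls, 8.20, 8.81 and 9.23 under fenofibrate and 9.20, 9.45 and 10.29 under fish oil. The difference was -0.54 ± 0.13 (adjusted p = 0.000985) against control and -0.81 ± 0.13 (adjusted p = 3.96e-06) against fish oil. Igfbp7, a related secreted protein with weak IGF binding, fell by 0.19 ± 0.07 (adjusted p = 0.0238). Leaving out either control replicate 5 (adjusted p = 0.0543) or control replicates 1, 2 and 9 (adjusted p = 0.052) lost that call. Under fish oil Igfbp7 differed from control by -0.14 ± 0.07 (adjusted p = 0.183), which was not called. Of 11 fish oil mice, 8 lay below the lowest control and 1, replicate 9 at 10.73, above the highest. Among the fish oil mice, replicate 9 also had the highest Igfals, Igfbp4 and Akt1 and the lowest Irs1. Between the treatments Igfbp7 differed by -0.05 ± 0.07 (adjusted p = 0.591).

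Igfbp3, the main IGF carrier of blood, moved the other way and is named here after its values were seen. It read 6.29, 7.73 and 8.35 in controls, 7.60, 8.10 and 8.59 under fenofibrate and 6.77, 7.38 and 8.31 under fish oil, with overlap of all 3 groups. The difference was 0.51 ± 0.20 (adjusted p = 0.0447) against control, and 0.23 (adjusted p = 0.352) without control replicates 1, 2 and 9. The call was lost in 6 of 11 other settings and in 11 of 33 fits that left out 1 mouse. Those mice were control replicates 1, 2, 4, 6 and 9 and fenofibrate replicates 1, 3, 4, 5, 6 and 10. Without control replicate 1 the difference was 0.36 (adjusted p = 0.116). Against fish oil Igfbp3 was higher by 0.68 ± 0.20 (adjusted p = 0.00637). In fish oil against control, 0 of the 5 genes were called, beside 14.5% of all genes, with 1 (Igfbp7) at an unadjusted p under 0.05 in limma.

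**Figure D4:**
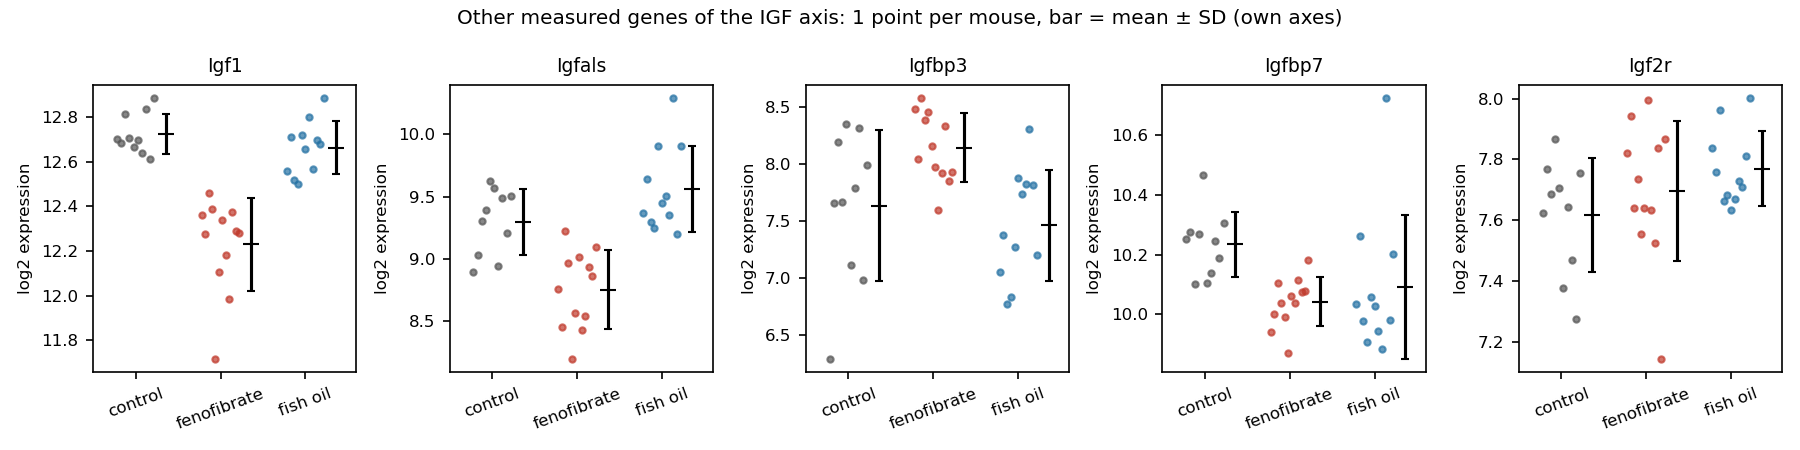
Level (log2, vertical axis, a separate axis in each panel) of the 5 other measured IGF axis genes in each mouse by diet, with bars for mean and SD. The fenofibrate points of Igf1, from 11.72 to 12.46, lie below all control and fish oil points, and the groups overlap in the other panels.

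Beyond the members and the IGF axis, 4 more lists by role were read, so that with the IGF axis 59 of 78 listed genes were measured. In all, 10 were higher and 13 lower under fenofibrate against control (39% called, against 40.8% of all genes), 2 higher and 3 lower under fish oil against control (8.47%, against 14.5%), and 9 higher and 14 lower under fenofibrate against fish oil (39%, against 38.9%). These shares were near the background or below it.

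Among receptor adaptors and subunits of phosphatidylinositol 3-kinase, 1 of 12 measured genes rose and 2 fell under fenofibrate against control (25%, beside 40.8% of all genes). The adaptor genes Shc1 and Grb2, which link receptors to the RAS pathway, fell by 0.21 ± 0.06 (adjusted p = 0.00629) and 0.20 ± 0.06 (adjusted p = 0.00798). Both missed the threshold when probe sets were averaged (adjusted p = 0.102 and 0.0855). In all, the Shc1 call against control was lost in 1 of 11 other settings and that of Grb2 in 2 of 11. The catalytic subunit gene Pik3ca differed by 0.18 ± 0.07 (adjusted p = 0.0424), a call lost in 5 of 11 other settings and 13 of 33 fits that left out 1 mouse. Under fish oil 0 of 12 were called, beside 14.5% of all genes, with 2 at an unadjusted p under 0.05 in limma. Between the treatments 0 of 12 were higher and 3 lower under fenofibrate (25%, beside 38.9% of all genes). The lower genes were Pik3cb at -0.27 ± 0.08 (adjusted p = 0.00893), Grb2 at -0.19 ± 0.06 (adjusted p = 0.0104) and Pik3r1, a regulatory subunit gene, at -0.38 ± 0.13 (adjusted p = 0.0176). Pik3cb lay near the filter, with means of 4.19 under fenofibrate and 4.46 under fish oil. The Grb2 call against fish oil was lost in 1 of 11 other settings (adjusted p = 0.0525).

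Among genes of the AKT, FOXO and mTOR steps, 2 of 15 rose and 2 fell under fenofibrate against control (26.7%, beside 40.8% of all genes). Mtor, the growth kinase downstream of AKT, rose by 0.38 ± 0.05 (adjusted p = 1.17e-06), from 8.86, 9.01 and 9.19 in controls to 9.22, 9.39 and 9.55, ranges that did not overlap (3.58% of all genes lay wholly higher). Eif4ebp1, the translation repressor that mTOR phosphorylates, rose by 0.30 ± 0.06 (adjusted p = 0.00013). Foxo4, a further FOXO gene, fell by 0.59 ± 0.11 (adjusted p = 3.78e-05), and differed by -0.45 ± 0.10 (adjusted p = 0.000882) from fish oil. In fish oil against control 1 of 15 was called (6.67%, beside 14.5% of all genes). It was Deptor, an inhibitor of mTOR, at 0.19 ± 0.07 (adjusted p = 0.0444), a call lost in 6 of 11 other settings and 12 of 33 fits that left out 1 mouse. Between the treatments 2 were higher and 3 lower under fenofibrate (33.3%, beside 38.9% of all genes), with Deptor at -0.32 ± 0.06 (adjusted p = 9.31e-05) and Mtor at 0.27 ± 0.05 (adjusted p = 0.000117).

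Of 13 measured genes that restrain the pathway, 2 were higher and 5 lower under fenofibrate against control (53.8%, beside 40.8% of all genes). Inppl1, the lipid phosphatase SHIP2, rose by 0.75 ± 0.10 (1.68-fold, adjusted p = 1.83e-07) and stood 0.62 ± 0.10 above fish oil (adjusted p = 2.96e-06). Ceacam1, which promotes insulin clearance by the liver, fell by 0.49 ± 0.06 (1.41-fold, adjusted p = 2.89e-08). Grb14, an inhibitor of the activated insulin receptor, fell under both diets, by 0.30 ± 0.05 (adjusted p = 1.43e-05) under fenofibrate and by 0.25 ± 0.05 (adjusted p = 0.000685) under fish oil. It read 10.38, 10.60 and 10.72 in controls, 10.11, 10.28 and 10.54 under fenofibrate and 10.11, 10.34 and 10.51 under fish oil, and both treated groups overlapped the controls at their upper ends. Grb14 was the 1 gene of the 13 called under fish oil (7.69%, beside 14.5% of all genes). Between the treatments 1 was higher and 4 lower under fenofibrate (38.5%, beside 38.9% of all genes). Among the lower were the receptor phosphatase gene Ptprf at -0.35 ± 0.06 (adjusted p = 7.87e-06) and Ceacam1 at -0.33 ± 0.06 (adjusted p = 2.49e-05).

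Among insulin and FOXO target genes, 4 of 14 rose and 1 fell under fenofibrate against control (35.7%, beside 40.8% of all genes). Under fish oil against control 1 rose and 2 fell (21.4%, beside 14.5% of all genes). Pdk4, the kinase that blocks pyruvate oxidation and a known PPARα target as well as a FOXO target, rose by 2.96 ± 0.42 (7.76-fold, adjusted p = 7.02e-07) under fenofibrate, and by 3.59 without control replicates 1, 2 and 9. Its fenofibrate and control ranges overlapped, with 1 of 12 fenofibrate mice above the highest control. Mttp, which loads lipid onto apolipoprotein B, rose by 0.32 ± 0.06 (adjusted p = 2.72e-05). Fasn, the fatty acid synthase gene, rose by 0.78 ± 0.17 (adjusted p = 0.000295) under fenofibrate and fell by 2.26 ± 0.17 (4.79-fold, adjusted p = 1.04e-11) under fish oil. Under fish oil, Srebf1, the insulin-driven activator of lipogenic genes, fell by 0.58 ± 0.17 (adjusted p = 0.0197; lost in 2 of 11 other settings, at up to 0.058), and Txnip, which limits glucose uptake, differed by 0.46 ± 0.15 (adjusted p = 0.0328; lost in 4 of 11, and in 11 of 33 fits that left out 1 mouse). Between the treatments 5 were higher and 2 lower under fenofibrate (50%, beside 38.9% of all genes). The called genes were led by Fasn at 3.04 ± 0.16, Pdk4 at 3.10 ± 0.41 and Srebf1 at 1.02 ± 0.16 (adjusted p of 2.35e-16, 2e-07 and 6.85e-06).

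Cage mates are not named in the labels. Within a diet, arrays with consecutive label numbers deviated together (median correlation 0.14 over 16 pairs, against -0.13 over 150 other pairs), so p-values here may be too small. With those pairs as a random block, 2 members were still called in each fenofibrate comparison and 0 under fish oil, while the genes called over the whole array fell to 3117, 845 and 2961 in the 3 comparisons.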

How the data were processed

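Liver RNA of 33 mice was hybridised to 1 array each. The submitters' processing notes name GCRMA 2.24.1 for the deposited log2 values; these were used as deposited, and 0 sample columns went unused. Symbols came from the platform annotation, updated by gene ID to GRCm38.p6 names. Probe sets with log2 of at least 4 in at least 10 arrays and 1 gene were kept, and the brightest stood for its gene. limma 3.58.1 with statmod 1.5.0 (R 4.3.3) fitted 3 diets over all genes, two-sided, with Benjamini-Hochberg adjustment and a threshold of 0.05. The fit was tested on simulated data. The named genes were all 10 members and, per pathway list and comparison, up to 3 called genes of smallest adjusted p. The members and lists were chosen with earlier results of these data known. Alternatives covered filters, probe set averaging, centring, variance, array weights, blocks and left-out arrays. Replicate numbers do not pair the mice: over 31 same-numbered pairs the median correlation was 0.05. Promoter sequences came from RefSeq. The array number limits precision.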

Additional observations from a re-analysis of the deposited data

Results flagged for a closer look

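Among the 10 control mice, the Igfbp2 level of replicate 2 lay apart from the others: it was the lowest at 12.50, and its gap to the next control made up 0.540 of the whole control range. Such a gap is past Dixon's limit for 10 samples. Control levels of 10 genes were tested in this way among the controls and 1 was past the limit, where chance gives about 1 in 20. The larger diet groups were not tested. Without this mouse the Igfbp2 difference between fenofibrate and control was 0.27, and it still passed the test.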

How the results depend on the processing

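The calls of Igfbp2 and Igfbp4 in both fenofibrate comparisons kept their direction and passed the test under all 11 other settings and all 33 fits that left out 1 mouse. The highest adjusted p over the other settings was 0.00279 for Igfbp2 and 0.00239 for Igfbp4 against control. Leaving out 1 mouse at a time gave 2 to 3 members called for fenofibrate against control, 0 to 0 for fish oil against control and 2 to 2 between the treatments. Array weights gave 4 members (Foxo1 and Foxo3 added), as did leaving out control replicates 1, 2 and 9, an alternative chosen after seeing the data. A replicate block gave 3 members for fenofibrate against control, with Foxo1 at an adjusted p of 0.0285, 0 under fish oil and 2 between the treatments, so that Foxo1 was the 1 member whose call the block changed. The count of all genes called under fish oil was 845 with label-number pairs as a random block, against 1308. The 5 pathway genes called under fish oil became 3 with no filter, 3 with only the 2 groups of the comparison, 9 with array weights, 2 with label-number pairs as a random block and 8 without fenofibrate replicate 11 and fish oil replicate 9, and ran from 3 to 7 when 1 mouse was left out (3 without any one of control mice 2 and 5 and fish oil mice 7, 8 and 11). The correlation of Irs2 with Insr under fenofibrate became 0.849 (permutation adjusted p = 0.00819) without the 2 arrays farthest from the median. The cause of these changes was not tested. No result changed direction past a threshold. Irs2 and 13 of the 78 pathway genes were too dim to be measured, and the width of the Igfbp1 and Irs1 intervals limits what a missed threshold can say.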

Other observations

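Within each diet, 3 pairs of genes were set against each other over mice, 9 relations in all, because Igfbp1, Irs2 and Insr are known FOXO1-regulated genes. With a permutation test of 100000 resamples, two-sided, and Benjamini-Hochberg adjustment over the 9, none passed the threshold. The smallest p was that of Irs2 with Insr under fenofibrate (Pearson r = 0.597, permutation p = 0.0386, adjusted p = 0.347; Spearman rho = 0.573, permutation p = 0.0556, adjusted p = 0.501; n = 12). Irs2 with Insr gave r = -0.173 in controls and -0.101 under fish oil. Without the 2 mice farthest from the median of Irs2 these became 0.641 and -0.447, so the direction in controls rested on those mice. Igfbp1 with Irs2 gave r = 0.567 in controls (permutation p = 0.0857, adjusted p = 0.386; rho = 0.370), and -0.20 without the 2 mice farthest from the median of Igfbp1, so that relation rested on those mice. Igfbp1 with Igfbp2 gave r = 0.261 in controls, 0.280 under fenofibrate and -0.00974 under fish oil, and 0.684, 0.0714 and 0.241 without the 2 mice farthest from the median of Igfbp1 in each. Irs2 was near the floor of the arrays throughout, and mice of a diet may share cages.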
